A study of Rattus norvegicus with 8 samples.

Results

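Gap43, Marcks, Kalrn, Cd24, Llgl1 and Cxcr4 are genes known from growth cones and axon growth, and their RNA was followed here in retinal ganglion cells (RGCs), the neurons whose axons form the optic nerve. The 6 genes were found by their symbols, each of which pairs with 1 Ensembl gene ID, among 32623 gene IDs counted in every library. The group was chosen by genes already known to have a higher level in the E21 than in the P11 libraries described here, so the difference between stages is given below as a description of these genes and is not tested. The study asked how the transcriptional state of RGCs changes as they lose the capacity to grow axons. RGCs of Sprague Dawley rats were compared between embryonic day 21 (E21), just before birth, and postnatal day 11 (P11), with 4 libraries per stage, each from the cells of an independent litter. Retinas were dissociated with papain, depleted of macrophages on an antibody-coated plate and bound to a plate coated with antibody against Thy1, a procedure called immunopanning that took hours before RNA was extracted. No genotype or drug differed between the stages, whereas age, the tissue source (embryos or pups) and the amount of papain did, so effects of age and of preparation cannot be told apart.

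A growth cone is the motile tip of an extending axon, where actin filaments at the leading edge and microtubules in the centre are remodelled in response to guidance cues. Gap43 and Marcks proteins lie on the inner face of its membrane, bind calmodulin and phosphoinositides, are substrates of protein kinase C, and couple calcium and lipid signals to the actin cortex. Kalrn (kalirin) is a guanine nucleotide exchange factor that activates Rac, Llgl1 is a cortical polarity protein of the Lgl family, Cd24 is a small glycoprotein anchored in the outer membrane leaflet, and Cxcr4 is the receptor for the chemokine Cxcl12.

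The RefSeq table of rat promoters held a window for 5 of the 6 genes, all but Gap43. The sequences of Marcks, Cd24 and Cxcr4 are shown because they hold, upstream of the annotated start, the letters TGACG, the core of the cyclic AMP response element (CRE) bound by CREB, the transcription factor the study turned to. They are the 250 bases before the start on the coding strand, from RefSeq on the GRCr8 assembly, which is not the Rnor_6.0 build used for counting: chr20:42245883-42246132 on the minus strand for Marcks, chr20:48656227-48656476 on the plus strand for Cd24 and chr13:42634289-42634538 on the minus strand for Cxcr4. Capitals mark every match to a motif searched, which reads CGTCA where TGACG lies on the other strand, ATTGG for a CCAAT box on the other strand, and TATAAA or its reverse complement in Cxcr4.
Marcks: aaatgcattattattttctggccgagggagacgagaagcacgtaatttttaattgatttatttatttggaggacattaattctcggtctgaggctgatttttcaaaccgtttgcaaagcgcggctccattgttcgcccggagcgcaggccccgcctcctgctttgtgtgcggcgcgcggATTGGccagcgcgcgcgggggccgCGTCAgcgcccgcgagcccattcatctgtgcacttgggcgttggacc
Cd24: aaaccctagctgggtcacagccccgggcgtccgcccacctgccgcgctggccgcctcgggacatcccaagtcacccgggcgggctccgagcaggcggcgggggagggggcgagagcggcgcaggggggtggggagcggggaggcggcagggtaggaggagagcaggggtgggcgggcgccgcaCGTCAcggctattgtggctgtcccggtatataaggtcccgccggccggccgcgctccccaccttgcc
Cxcr4: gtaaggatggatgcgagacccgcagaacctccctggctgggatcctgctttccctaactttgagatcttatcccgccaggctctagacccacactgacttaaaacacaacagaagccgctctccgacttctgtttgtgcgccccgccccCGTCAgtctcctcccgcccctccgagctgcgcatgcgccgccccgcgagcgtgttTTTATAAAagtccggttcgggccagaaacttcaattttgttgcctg

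Each motif was searched on both strands in the 250 bases before and the 50 bases after the start, the same window for every RefSeq gene. TGACG was found in 4 of the 5 windows, beside 21.2% of all 33469 windows. These letters hold a C followed by a G (CpG), and the share was not matched for CpG. The windows of Marcks, Kalrn, Cd24, Llgl1 and Cxcr4 held 26, 9, 34, 44 and 20 CpG, beside a median of 7 over all windows. Its first base, counted on the strand as printed with -1 as the last base before the start, lay at -47 in Marcks, -67 in Cd24 and -101 in Cxcr4, and in Kalrn the match began at base 2 of the transcribed part, outside what is printed here. The full CRE TGACGTCA, which contains TGACG, was in 0 of the 5, beside 1.83% of all windows, and the E-box CACGTG in 0 of the 5, beside 6.42%. A CCAAT box was found in Marcks only (37.5% of all windows) and TATAAA in Cxcr4 only (14.2%). The windows of Llgl1 and Cd24 had a GC content of 76.7% and 74%, higher than 97.7% and 96.0% of all windows, while those of Marcks, Kalrn and Cxcr4 had 53.7%, 57.7% and 58%. In the GRCr8 annotation the start used for Kalrn lies 56816 bases inside the gene's span, so its window describes an internal start. The starts used for Cd24 and Llgl1 lie 928 and 158 bases inside the spans of these genes, so they too are internal. Those of Marcks and Cxcr4 lie at the edge of the span. Matches of letters are descriptions and were not related to binding or to the RNA levels.

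Reads counted on genes ranged from 13899299 to 20116017 per library, and the depth of the stages did not differ detectably (exact permutation test, two-sided, p = 0.543, n = 4 per stage). Levels are given as CPM, the reads of a gene per 1e+06 reads counted on genes, with libraries scaled by the trimmed mean of M values (TMM). A floor of 3 counts corresponds to 0.149 to 0.216 unscaled CPM, and floors and counting intervals cover counting error only. Records aligned to several places made up 40.3% ± 2.04 (SD, n = 4) of all records at E21 and 34.7% ± 2.14 at P11 (exact permutation test, two-sided, p = 0.0286, the smallest that 4 against 4 can give, or 0.0364 once adjusted by Benjamini-Hochberg for 14 measures made on each library). A pair of libraries stood apart in their own stage. The counts of P11 replicate 4 differed from those of the other P11 libraries with a chi-square per degree of freedom of 6.37 to 8.12, against 2.86 to 3.90 among the other 3. E21 replicate 1 gave 6.35 to 7.16, against 3.30 to 4.19 among the other E21 libraries. No pair of libraries agreed within sampling noise. Values without P11 replicate 4 and without E21 replicate 1 are therefore given for each of the 6 genes.

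Every E21 library lay above every P11 library for all 6 genes, a separation in this direction that 35.4% of the 14043 genes tested also had. Of the 6, all passed the thresholds used for a call, a Benjamini-Hochberg adjusted p below 0.01 in the quasi-likelihood test of edgeR together with a log2 fold change beyond 1, as did 8.16% of the genes tested in that direction. Since the genes were chosen with this contrast known, nothing is read from either count. The sizes fell into separate ranges, with 4 genes between 2.06-fold and 2.75-fold and Cd24 and Cxcr4 both near 23-fold. The 6 genes summed to 4871 ± 94.6 CPM in E21 libraries and 1615 ± 47.4 CPM in P11 libraries (SD, n = 4 per stage), a ratio of 3.02, and most of this sum is Gap43, Marcks and Cd24. In RNA from whole cell preparations, fewer cells with a transcript and less of it per cell cannot be told apart.

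**Figure D1:**
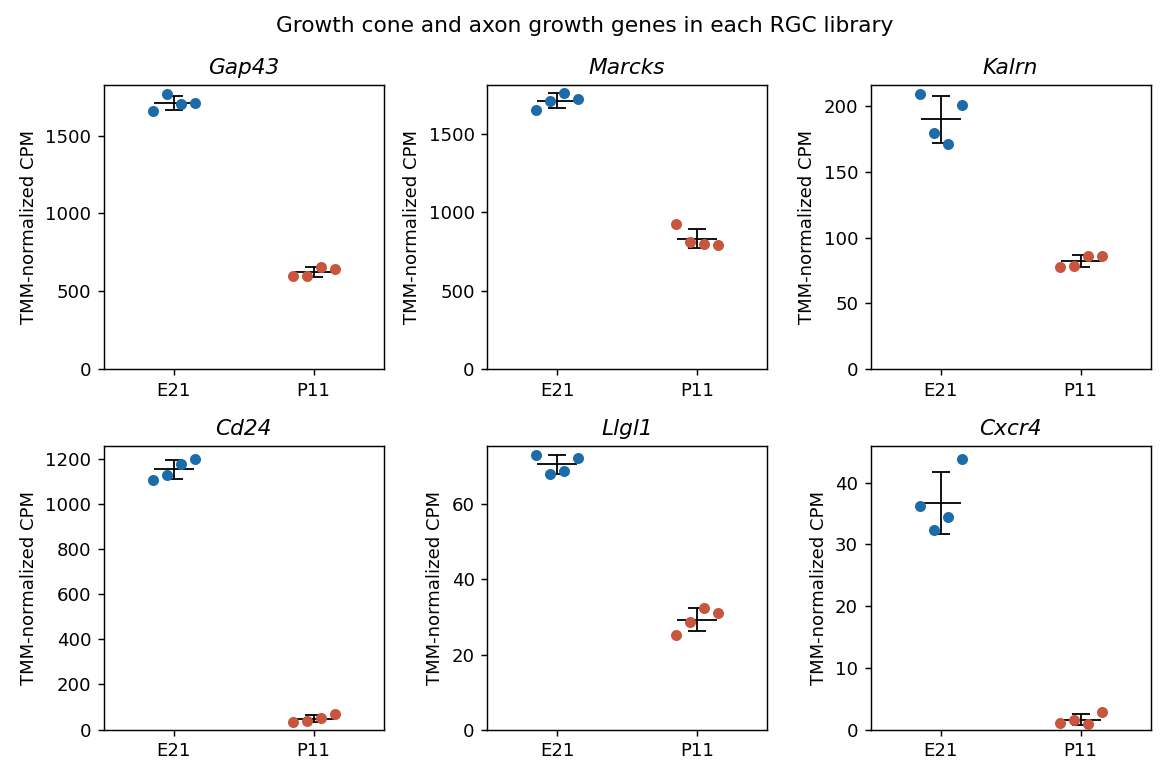
Level of each of the 6 genes in every library, in TMM-normalized CPM from 0 on the vertical axis, for E21 (blue, left) and P11 (red, right). Each point is a library in the order of its replicate number, and the bars give mean ± SD (n = 4). The points of the stages do not overlap for any of the 6 genes.

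Gap43, the growth-associated protein used as a marker of growing axons, had 1660, 1767, 1706 and 1709 CPM in E21 replicates 1 to 4. At P11 it had 599, 594, 658 and 639 CPM. It was still counted at no fewer than 8920 reads in any library, so the P11 level is far from the floor, and the spread within a stage was small. The means were 1711 ± 44.0 and 623 ± 30.8 CPM (SD, n = 4 per stage), which is 2.75-fold, or 1.46 on the log2 scale with a standard error (SE) of 0.04. Without P11 replicate 4 the log2 fold change was 1.47, and without E21 replicate 1 it was 1.48.

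Marcks, the myristoylated substrate of protein kinase C that shields phosphoinositides, had 1649, 1711, 1761 and 1723 CPM at E21. At P11 it had 923, 806, 799 and 793 CPM. P11 replicate 1 was the highest of its stage and the other 3 lay close together. The means of 1711 ± 46.6 and 830 ± 62.2 CPM (SD, n = 4 per stage) differed 2.06-fold, with a log2 fold change of 1.04 (SE 0.05). This is the smallest difference of the group and lies at the fold threshold, since scaling by library size alone gave 0.99 and upper-quartile scaling also gave 0.99. Without P11 replicate 1 it was 1.10, without P11 replicate 4 it was 1.02 and without E21 replicate 1 it was 1.07.

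The ratio of Marcks to Gap43 within a library, whose change between stages does not depend on gene length, was 0.968 to 1.03 at E21 and 1.22 to 1.54 at P11. The pair therefore differed in how much lower it was at P11, and the ranges of the stages did not overlap. The ratio of Kalrn to Gap43 also moved upward, from 0.100 to 0.126 at E21 to 0.129 to 0.134 at P11. The ratio of Llgl1 to Gap43 ranged from 0.0384 to 0.0441 at E21 and from 0.0419 to 0.0492 at P11, ranges that overlapped.

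Kalrn, whose protein drives actin remodelling in growth cones and dendritic spines, had 210, 179, 171 and 201 CPM at E21. At P11 it had 77.4, 78.7, 86.0 and 85.9 CPM. The E21 libraries were more spread than the P11 libraries, with replicates 1 and 4 above replicates 2 and 3. The means of 190 ± 17.9 and 82.0 ± 4.60 CPM (SD, n = 4 per stage) differed 2.32-fold, with a log2 fold change of 1.21 (SE 0.06), which was 1.23 without P11 replicate 4 and 1.17 without E21 replicate 1. In the GRCr8 annotation 2 long noncoding RNA genes and 1 pseudogene overlap the span of Kalrn. Whether the authors counted by strand is not given in the sources used here, so reads of these genes and of Kalrn may have been mixed.

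Llgl1, the mammalian lethal giant larvae homologue that takes part in neuronal polarity, had 73.2, 68.0, 68.8 and 72.3 CPM at E21. At P11 it had 25.1, 28.7, 32.4 and 31.0 CPM. The P11 libraries were the more variable in relative terms and still lay below the lowest E21 library by 2.10-fold. The means of 70.6 ± 2.56 and 29.3 ± 3.17 CPM (SD, n = 4 per stage) differed 2.41-fold, with a log2 fold change of 1.26 (SE 0.07), 1.29 without P11 replicate 4 and 1.25 without E21 replicate 1. Llgl1 overlaps the neighbouring gene Flii by 44 bases in GRCr8. Flii, looked at after its values were seen, had 203 ± 7.16 CPM in E21 libraries and 216 ± 5.48 CPM in P11 libraries (log2 fold change -0.09, SE 0.04, edgeR adjusted p = 0.0526).

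Cd24, which marks immature neurons in many tissues and is also made by epithelial and blood cells, had 1106, 1126, 1176 and 1199 CPM at E21. At P11 it had 34.4, 39.2, 53.3 and 70.2 CPM. The E21 libraries were within 1.08-fold of each other, whereas P11 replicate 4 was 2.04-fold above P11 replicate 1, with exact Poisson 95% intervals of 66.4 to 74.1 and 31.5 to 37.5 CPM that did not meet. The means of 1152 ± 42.8 and 49.3 ± 16.1 CPM (SD, n = 4 per stage) differed 23.4-fold. The log2 fold change was 4.54 (SE 0.23), 4.76 without P11 replicate 4 and 4.56 without E21 replicate 1, and 11 of the 14043 genes tested had a larger one. Relative to Gap43 in the same library, Cd24 went from 0.674 ± 0.0283 at E21 to 0.0785 ± 0.0230 at P11 (SD, n = 4 per stage).

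Cxcr4, the only receptor for a secreted ligand in the group, had 36.2, 32.4, 34.4 and 43.8 CPM at E21, from 541 to 655 reads. At P11 it had 1.08, 1.54, 0.889 and 2.84 CPM, from 16, 26, 14 and 52 reads. All P11 libraries were above the floor of 3 counts, and P11 replicate 4 was 3.19-fold above P11 replicate 3, with exact Poisson 95% intervals of 2.12 to 3.72 and 0.486 to 1.49 CPM. The means of 36.7 ± 4.99 and 1.58 ± 0.878 CPM (SD, n = 4 per stage) differed 23.2-fold. The log2 fold change was 4.48 (SE 0.23), 4.94 without P11 replicate 4 and 4.49 without E21 replicate 1, and 12 of the 14043 genes tested had a larger one.

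**Figure D2:**
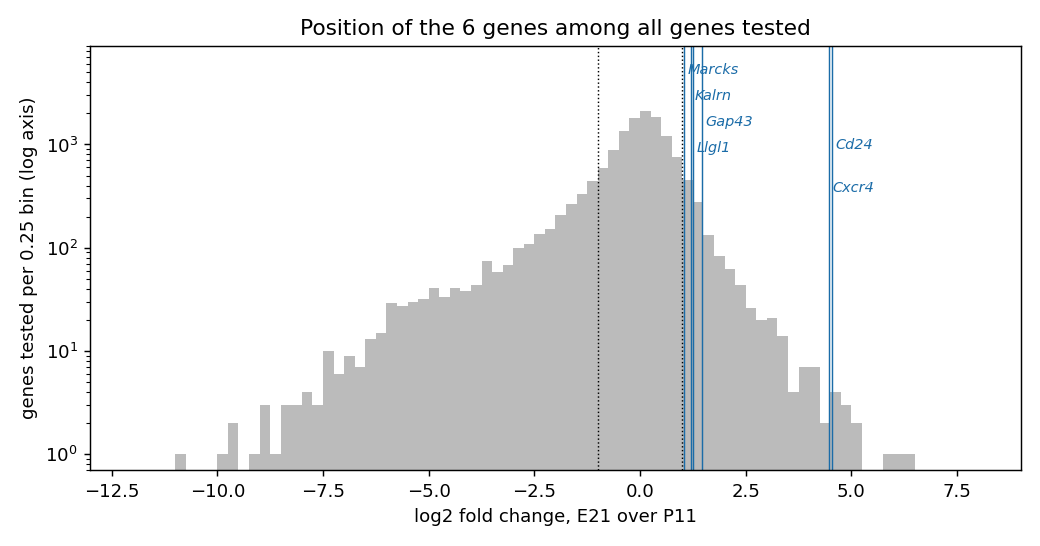
Distribution of the log2 fold change (E21 over P11) of the 14043 genes tested, in bins of 0.25 with the number of genes on a log axis. Blue lines mark the 6 genes and dotted lines the threshold of 1 in either direction. Marcks, Kalrn, Llgl1 and Gap43 lie between 1.04 and 1.46, Cxcr4 at 4.48 and Cd24 at 4.54, near the right end.

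The 6 genes also differed in how much they varied between litters of the same stage. The biological coefficient of variation fitted by edgeR was 0.0453 for Gap43, 0.0518 for Marcks and 0.0592 for Llgl1, close to the trend for genes of their abundance. Kalrn, at 0.0624, was 1.27 times the trend, above 90.5% of the genes tested, and its wider spread lay in the E21 libraries. The coefficient was 0.216 for Cd24, 4.40 times the trend, and 99.7% of the genes tested had a lower ratio to the trend. It was 0.208 for Cxcr4, 2.77 times the trend, above 98.9% of the genes tested. The wider spread of both lay in the P11 libraries, where the standard deviation was 32.7% of the mean for Cd24 and 55.4% for Cxcr4, compared with 3.72% and 13.6% at E21. The trend is taken at a gene's abundance over both stages, which for Cxcr4 is set mostly by E21, and was 0.0752. At levels near that of Cxcr4 at P11 the trend was higher, such as 0.169 for Arr3 at 0.981 and 1.20 CPM. The ratio for Cxcr4 may therefore overstate how unusual its spread at P11 was. The order of the P11 libraries by Cxcr4 was replicate 3, 1, 2 and 4 from low to high, and by Cd24 replicate 1, 2, 3 and 4. In that order the exact Poisson 95% intervals of Cxcr4 were 0.486 to 1.49, 0.615 to 1.75, 1.01 to 2.25 and 2.12 to 3.72 CPM. Neighbours overlapped, so the counts do not settle the full order by Cxcr4.

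**Figure D3:**
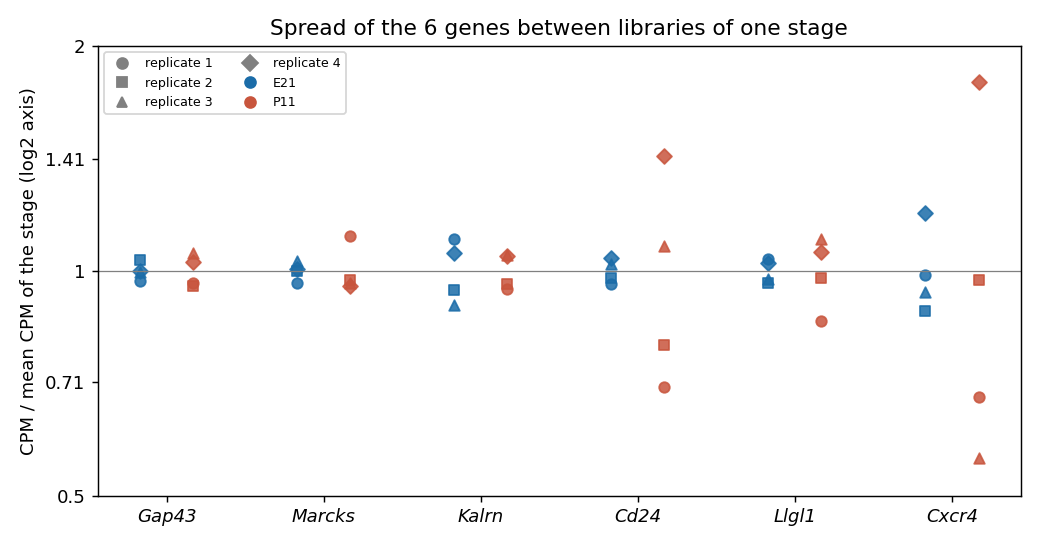
Level of each gene in each library divided by the mean of its stage, on a log2 axis, with E21 in blue and P11 in red and a symbol shape for each replicate number. Most points lie near 1, whereas at P11 Cd24 spans 34.4 to 70.2 CPM and Cxcr4 0.889 to 2.84 CPM, with replicate 4 highest for both.

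Markers of other cells moved between the stages as well. The endothelial and mural list (Flt1, Erg, Flt4, Rgs5 and Notch3) summed to 3.52 to 5.41 CPM at E21 and to 283 to 556 CPM at P11, most of it from the pericyte genes Rgs5 and Notch3. By P11 library it was 373, 464, 283 and 556 CPM in replicates 1 to 4. The order from low to high, replicates 3, 1, 2 and 4, was that of Cxcr4, whose few reads do not settle its own order. Of the 6 genes 1 had this order, beside 5.53% of the 14043 genes tested, so nothing is read from the match. The list was thus higher at P11, where the 6 genes were lower, and highest in P11 replicate 4, where Cd24 and Cxcr4 were highest among the P11 libraries. Its part in the levels of Cd24 and Cxcr4 was not tested.

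The general neuronal list (Uchl1, Rbfox3, Nsf, Cplx1 and Cplx2) summed to 2449 to 2496 CPM at E21 and to 3628 to 4107 CPM at P11. Most of the higher sum was Nsf, a vesicle fusion ATPase called higher at P11, which went from 204 ± 28.3 to 1390 ± 78.2 CPM (SD, n = 4 per stage, log2 fold change -2.77), and the complexin gene Cplx1 was also called, at 223 ± 11.3 and 488 ± 38.5 CPM (-1.13). Cplx2 with a log2 fold change of -0.55, Rbfox3 with -0.08 and Uchl1 with 0.21 were not called. The symbols of the defining RGC markers Pou4f1, Rbpms and Thy1 were not paired with gene IDs here, so the RGC label could be checked with general neuronal genes only. Photoreceptor markers, 6 genes, summed to 6.99 to 8.50 CPM at E21 and 29.9 to 49.4 CPM at P11, and bipolar markers, 4 genes, to 41.4 to 49.0 and 87.3 to 94.5 CPM, of which most was Prkca, which is also a kinase of Gap43 and Marcks. The bipolar markers Grm6, at 5.97 ± 0.590 and 3.37 ± 0.449 CPM, and Lhx4, at 0.842 ± 0.229 and 0.400 ± 0.186 CPM, had values in the opposite direction. Amacrine and horizontal markers, 3 genes, summed to 427 to 444 and 316 to 325 CPM, mostly Pax6, which RGCs express too. The other genes of this list were called in opposite directions. Gad1, which makes GABA in amacrine and horizontal cells, was called higher at P11, at 0.856 ± 0.280 and 13.8 ± 3.40 CPM (log2 fold change -4.03). Prox1 was called higher at E21, at 5.97 ± 0.518 and 2.63 ± 0.296 CPM (log2 fold change 1.18). Erythroid markers, 3 genes, summed to 2.12 to 3.01 and 5.01 to 5.89 CPM. Astrocyte and Muller glia markers, 3 genes, summed to 0.669 to 0.861 and 1.15 to 2.62 CPM. The higher sum at P11 was S100b, at 0.0294 ± 0.0346 and 1.64 ± 0.624 CPM, while Sox9, at 0.623 ± 0.115 and 0.354 ± 0.0917 CPM, had lower values at P11. Gfap, at 0.0969 ± 0.0919 and 0.0602 ± 0.0520 CPM, did not exceed the floor of 3 counts in any library, so no direction is read for it. In each of the 7 lists named so far the stages differed in their sum (exact permutation test, two-sided, p = 0.0286, adjusted p = 0.0364 over 14 measures). The oligodendrocyte gene Mog was higher at E21, as the 6 genes were, at 23.1 ± 1.90 and 10.4 ± 0.400 CPM. Of 5 progenitor genes listed, 3 were tested and 2 of them were called higher at P11. These were Hes1, at 0.260 ± 0.182 and 13.4 ± 3.99 CPM, and Cdk1, at 0.343 ± 0.123 and 2.72 ± 1.31 CPM. Other genes of that list did not all have higher values at P11. The part of these cells in the levels of the 6 genes was not tested. Microglia and leukocyte markers (Ptprc, Aif1, Itgb2 and Ncf1) summed to 0.469 to 0.735 CPM at E21 and 0.672 to 1.21 CPM at P11 (exact permutation test, p = 0.171, adjusted p = 0.2), with no gene above 9 reads in any library and each above 0 in at least 1. This sum joins opposite directions, since over all libraries of a stage Aif1 had 1 read at E21 and 21 at P11, and Itgb2 11 and 1. Ptprc and Ncf1 overlapped between the stages. None of the cell type markers was at 0 in every library.

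The other genes of the pathway were taken from lists by function of genes with a paired symbol, 77 in all, of which 75 passed the filter on low counts. Of the 75, 5 (6.67%) were called higher at E21 and 16 (21.3%) higher at P11 by edgeR with Benjamini-Hochberg adjustment, beside 8.16% and 16.5% of all genes tested. Their median log2 fold change was 0.10, and that of all genes tested was 0.0042. Without the fold threshold, an adjusted p below 0.01 was reached by 35 genes toward E21 and 33 toward P11. By sign alone, 39 of the 75 (52%) were lower at P11, as the 6 genes were, and 36 were higher, beside 50.3% lower at P11 among all genes tested. The listed genes were thus near the background in both directions.

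**Figure D4:**
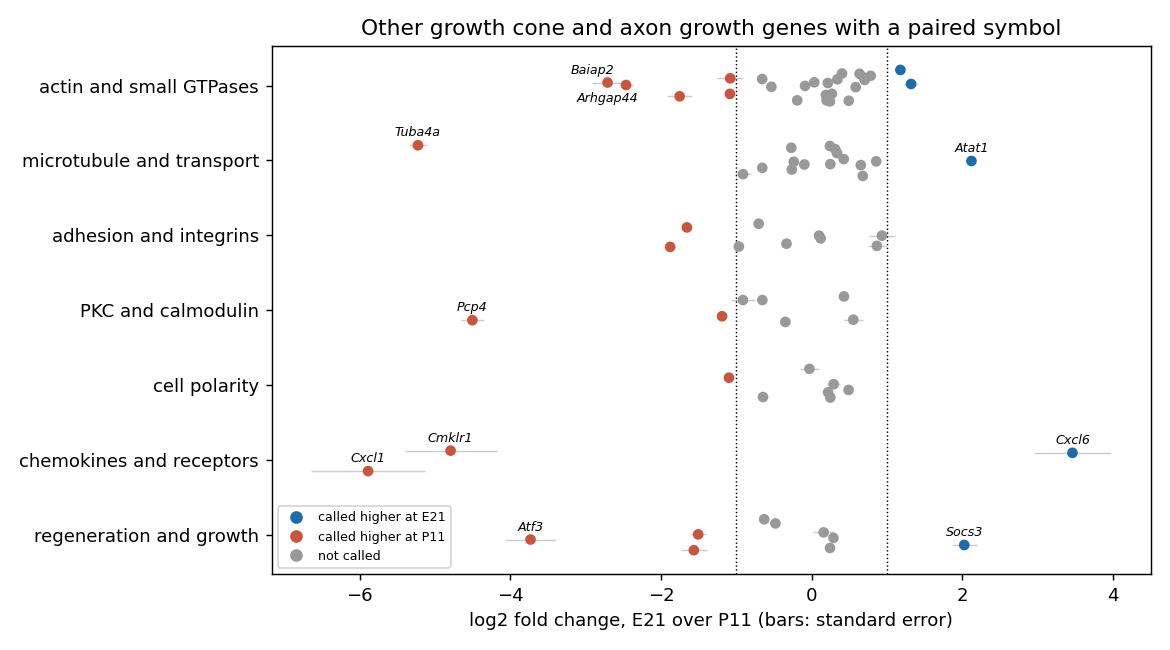
Log2 fold change (E21 over P11) of the 75 listed genes tested, by list, with the standard error as a bar. Mark1 appears in the lists of microtubule and of polarity genes. Blue and red points are the 5 genes called higher at E21 and the 16 called higher at P11, grey points were not called, dotted lines mark 1 in either direction, and called genes beyond 2 are named. The fitted values of Cxcl6, Cmklr1 and Cxcl1 rest on a stage with few or no counts.

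Among 25 regulators of actin and small GTPases, 2 were called higher at E21 and 5 higher at P11. Daam1, a formin that elongates actin filaments downstream of Wnt signals, went from 189 ± 8.74 to 83.7 ± 6.13 CPM (SD, n = 4 per stage), a log2 fold change of 1.18 (SE 0.05, edgeR adjusted p = 2.9e-12). Mical1, which oxidises and severs actin filaments downstream of semaphorin receptors, went from 19.8 ± 0.638 to 7.89 ± 0.948 CPM (log2 fold change 1.32, SE 0.09, edgeR adjusted p = 8.7e-10). These had changes of the size seen for Kalrn and Llgl1. The largest changes of the list were toward P11. Baiap2, which bends membranes and links Rac and Cdc42 to actin, rose from 1.49 ± 0.436 to 9.59 ± 1.95 CPM (6.44-fold), and Arhgap44, a GTPase-activating protein for Rac and Cdc42, from 30.8 ± 2.54 to 171 ± 18.9 CPM (5.54-fold). The Arp2/3 subunit Arpc1b rose 3.33-fold, the formin Fmnl1 2.13-fold, and the exchange factor Arhgef6 2.11-fold. The edgeR adjusted p of these 5 was between 7.3e-12 for Fmnl1 and 2.6e-05 for Arhgef6. Arhgef6 was under the fold threshold without E21 replicate 1, with a log2 fold change of -0.98. The other 18 genes, among them Rac1 at 298 ± 16.9 and 316 ± 17.9 CPM and the Src-family kinase Fyn at 343 ± 5.22 and 200 ± 7.12 CPM, were not called.

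Among 16 microtubule and axonal transport genes, 1 was called in each direction. Atat1, the acetyltransferase of alpha-tubulin, went from 640 ± 12.7 to 147 ± 8.70 CPM, 4.35-fold higher at E21 (SD, n = 4 per stage, log2 fold change 2.12, SE 0.05, edgeR adjusted p = 9.0e-16). Tuba4a, an alpha-tubulin isotype, rose from 7.95 ± 1.70 to 304 ± 25.9 CPM, 38.3-fold (log2 fold change -5.23, SE 0.12, edgeR adjusted p = 1.1e-11). The tubulin enzyme and this tubulin isotype thus moved in opposite directions between the same libraries. Tubulin genes are near-identical in parts of their sequence, so the count of Tuba4a depends on how shared reads were assigned.

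Among 9 neuronal adhesion molecules and integrins, 0 were called higher at E21 and 2 higher at P11, with the same counts by DESeq2 and with an unadjusted p below 0.05 for 4 genes toward E21. Of these 4, 3 had an edgeR adjusted p below 0.01 and missed only the fold threshold. Alcam, an immunoglobulin-family molecule of RGC axons, rose from 20.6 ± 1.31 to 75.6 ± 5.54 CPM (3.67-fold) and Cntn1, a contactin of the axon membrane, from 237 ± 14.5 to 747 ± 19.9 CPM (3.15-fold), with edgeR adjusted p of 1.5e-13 and 1.2e-14. Of the other 7, the laminin receptor subunit Itga6 at 30.1 ± 2.14 and 15.6 ± 4.52 CPM had the largest value toward E21, a log2 fold change of 0.93 (SE 0.17), and was not called.

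The list closest to Gap43 and Marcks held 7 genes of protein kinase C and calmodulin signalling. By edgeR and by DESeq2 0 were called higher at E21 and 2 higher at P11, and 2 genes toward E21 had an unadjusted p below 0.05. Those 2 toward E21 also had an edgeR adjusted p below 0.01 and missed only the fold threshold. Pcp4, a small calmodulin-binding protein that, like Gap43, carries an IQ motif, rose from 18.1 ± 4.95 to 420 ± 18.5 CPM (23.2-fold, log2 fold change -4.50, SE 0.16, edgeR adjusted p = 4.2e-08). Prkca, a kinase that phosphorylates both proteins, rose from 38.3 ± 2.68 to 87.5 ± 3.23 CPM (2.29-fold, edgeR adjusted p = 4.2e-12), with bipolar cells as another known source of its RNA.

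Among 8 cell polarity genes, which Llgl1 belongs with, 7 were tested and 1 was called, the ubiquitin ligase Lnx1, which rose from 27.6 ± 1.68 to 59.0 ± 1.35 CPM (2.14-fold, edgeR adjusted p = 1.3e-11). The second largest value was that of the scaffold Dlg3, with a log2 fold change of -0.65 (SE 0.05), and the junction gene F11r was below the filter. The list holds only polarity genes with a paired symbol, so other partners of Llgl1 may be missing from it. Toward E21, the direction of Llgl1, 0 genes of this list were called by edgeR or DESeq2, and 4 had an unadjusted p below 0.05. These 4 also had an edgeR adjusted p below 0.01 and missed only the fold threshold.

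Chemokine ligands and receptors other than Cxcr4 were near the floor at 1 of the stages. Cxcl6, a ligand of neutrophil receptors, had 10, 19, 23 and 10 reads at E21 and 1, 0, 2 and 2 at P11, and was at least 4.43-fold higher at E21 against a floor of 3 counts per library (edgeR adjusted p = 9.1e-06). Cxcl1 had 1, 4, 0 and 1 reads at E21 and 62, 125, 33 and 164 at P11 (edgeR adjusted p = 6.9e-05), and without E21 replicate 2 it was at least 25.8-fold higher at P11. Cmklr1, the chemerin receptor, had 0, 0, 6 and 0 reads at E21 and 35, 48, 25 and 69 at P11 (edgeR adjusted p = 9.6e-06), and without E21 replicate 3 it was at least 12.01-fold higher at P11. The order of the P11 libraries by both Cxcl1 and Cmklr1 was that of Cxcr4 and of the endothelial and mural sum, replicate 3 lowest and replicate 4 highest. For Cxcr4 this order rests on few reads with overlapping counting intervals. Arpc1b, Atf3 and Tnfrsf12a had the same order, which makes 5 of the 16 listed genes called higher at P11, beside 12.7% of all genes called higher at P11. The part of other cells in these levels was not tested. Cxcl2 was below the filter, and the Cxcr4 ligand Cxcl12 was not among the paired symbols.

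Of 9 genes of regeneration and growth signalling, 1 was called higher at E21 and 3 higher at P11. Socs3, an inhibitor of JAK-STAT signalling that restrains RGC axon regeneration in injury models, went from 5.92 ± 0.344 to 1.45 ± 0.220 CPM (4.08-fold higher at E21, edgeR adjusted p = 7.6e-09). Atf3, a stress-induced transcription factor of injured neurons that is also induced by cell dissociation, rose from 0.785 ± 0.235 to 10.8 ± 4.39 CPM (13.8-fold, edgeR adjusted p = 1.5e-06). Tnfrsf12a, the TWEAK receptor, rose 2.94-fold and Deptor, an inhibitor of mTOR, 2.85-fold, with edgeR adjusted p of 3.1e-07 and 1.3e-09. The mTOR pathway genes Rptor and Rps6kb1, at 99.6 ± 3.61 and 34.5 ± 1.62 CPM at E21 and 139 ± 5.18 and 29.2 ± 1.28 CPM at P11, were not called.

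For each of the 6 genes, the 1778 other tested genes with a paired symbol were ranked by the Pearson correlation of log2 CPM over the 8 libraries. The libraries form a cluster per stage, so a high correlation is reached by many genes that differ between the stages, and between 18.5% and 21.4% of the genes compared had an r above 0.95 with a given member of the 6. Nme1, a nucleoside diphosphate kinase (r = 0.999), and Fyn (r = 0.999) were most like Gap43, at log2 fold changes of 0.90 and 0.78. Lrrc20 (r = 0.997) and Bag6 (r = 0.997) were most like Marcks, and Hip1 (r = 0.999) and the myelin gene Mog (r = 0.998) most like Kalrn. Their log2 fold changes were 1.29 (SE 0.08) for Hip1 and 1.14 (SE 0.08) for Mog. For Cd24 they were Gpc2, a heparan sulfate proteoglycan of growing axons (r = 0.9999), and Carhsp1 (r = 0.9996). Gpc2 went from 533 ± 13.3 to 6.51 ± 3.03 CPM between E21 and P11, and Carhsp1 from 145 ± 5.11 to 11.2 ± 3.10 CPM, so both were far lower at P11, as Cd24 was. Gpr161 (r = 0.998) and the ubiquitin ligase Smurf1 (r = 0.997) were most like Llgl1. For Cxcr4 they were the helicase Ddx54 (r = 0.998) and the actin-binding protein Lasp1 (r = 0.997), whose log2 fold changes of 0.69 and 0.49 were much smaller than its own.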

How the data were processed

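RNA sequencing counts of 8 rat RGC libraries were used. The authors depleted ribosomal RNA, made SMARTer libraries, trimmed reads with Cutadapt 1.16, aligned them with STAR 2.5.3a to Rnor_6.0, counted them per gene with HTSeq 0.6.1 and deposited raw counts for each library without normalization or pooling (tools also in the submitters' processing notes). The annotation release and the strand setting are not given in the sources used here. Records on no gene, 51.7% to 58.4% per library, were left out.

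Symbols came from a gene table of the study of which only part was at hand, pairing 1997 IDs. The 6 genes and all lists were chosen with earlier results of these data known. Genes passing edgeR's filterByExpr (14043) were TMM-normalized and tested with edgeR 4.0.16 (quasi-likelihood, robust, stage only) in R 4.3.3, and called at the study's thresholds, adjusted p under 0.01 with log2 fold changes over 1 in size. The SE is the log2 fold change over the root of F. Correlations used log2 CPM with a prior count of 1. Named genes are the 6, all called genes and the 2 largest changes per list, the 2 most alike genes per member and the markers. Rac1, Itga6, Rptor, Rps6kb1 and Flii were named after their values were seen. Litters are separate, so p-values measure the spread between litters and their preparations. Alternatives were DESeq2 1.42.0, other scalings and filters, edgeR's glmTreat against a fold change, an adjusted p below 0.05, the replicate number as a block and each library left out. On simulated data for this comparison, edgeR called 200 of 200 changed genes and 0 unchanged among 14043. Calling at the fold changes and the spread between litters of the 6 genes was not tested in this way. No gene lengths or proteins were at hand, so no levels per length are given. Sums over several genes are in CPM, so longer genes weigh more in them. The results of some genes, and of marker lists that need them, are not reported here.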

Additional observations from a re-analysis of the deposited data

Results flagged for a closer look

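Of 58 groups of 4 libraries examined (the 6 genes and their sum, the 21 called genes of the pathway lists, and depth), 4 had a library far from the rest by Dixon's criterion at the 95% level, and chance alone would give about 1 in 20. In Marcks, P11 replicate 1 was at 923 CPM and the other P11 libraries at 793 to 806 CPM. In Arhgap44, E21 replicate 4 was at 27.0 CPM and the other E21 libraries at 32.0 to 32.1 CPM. In Tuba4a, P11 replicate 4 was at 266 CPM and the other P11 libraries at 312 to 320 CPM. In Cmklr1, E21 replicate 3 was at 0.315 CPM and the other E21 libraries at 0. A gene counted in only 1 library of a stage meets the criterion at any level, so nothing is read from this flag. Each of the 4 genes kept its direction between stages without that library.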

How the results depend on the processing

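The log2 fold changes of the 6 genes kept their direction under all 15 alternatives run for each. They ranged from 1.40 to 1.48 for Gap43, 0.99 to 1.10 for Marcks, 1.16 to 1.26 for Kalrn, 4.41 to 4.76 for Cd24, 1.20 to 1.30 for Llgl1 and 4.27 to 4.94 for Cxcr4. In a count added after seeing the data, 5 of the 6 passed the thresholds with library size only, with upper-quartile scaling and with glmTreat, each time without Marcks, and all 6 in the other 13 alternatives. Genes called higher at P11 numbered 1523 rather than 2316 when at least 10 counts were required in every library, which leaves fewer genes to test, and genes called higher at E21 numbered 668 rather than 1146 when glmTreat tested against a log2 fold change of 1. The listed genes called ranged from 4 to 6 toward E21 and from 13 to 17 toward P11. Fmnl1, Lnx1 and Arhgef6 were lost with glmTreat. With the replicate number as a block, 1147 genes were called higher at E21, 2316 higher at P11, and 5 and 16 of the listed genes. Same-numbered libraries deviated from their stage means with correlations of -0.026 to 0.074 and others with -0.089 to 0.063. No large deviation shared by same-numbered libraries was thus seen, which cannot show whether they were handled together. Scaling moved the median log2 fold change of all genes by -0.05 at most. Depth limits Cxcr4 at P11, with 14 to 52 reads per library, and the chemokine genes. Gene lengths and protein features could not be examined without a reference that holds them.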
